A study of Mus musculus with 12 samples.

Results

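The Wnt feedback inhibitors described here are 10 genes whose products restrain Wnt/β-catenin signaling inside the cell (Axin2, Nkd1, Nkd2 and Sp5), outside it (Dkk1, Dkk2, Dkk3 and Wif1) or at its surface (Apcdd1 and Kremen1). They were chosen by name: every spot other than a control whose gene symbol in the scanner files was one of the 10. The rule found 14 probes, each printed as 1 spot, among 41174 distinct probes on the array, which carry 27962 gene names. Of these 14 probes, 5 probes of 3 genes (Axin2, Apcdd1 and Kremen1) were tested, having read well above background in all 3 replicates of 1 group or more, as were 22751 probes in all. The 9 probes of the other 7 genes did not pass, and their signals are given only as levels near background.

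The cells were C57MG, a line of mammary epithelial cells from the mouse, grown in monolayers. After serum-containing medium had been replaced with plain medium, the cells received recombinant human R-spondin2 (Rspo2) at 100 ng/ml, recombinant mouse Wnt3a at 100 ng/ml, both proteins at those doses, or the carrier bovine serum albumin (BSA), for 24 h. Each of the 4 groups had 3 arrays, labeled as biological replicates, so 12 arrays were compared. The arrays were 1-colour 60-mer arrays that measure poly(A)+ RNA of the whole monolayer. A change in the makeup of the cells and a change in RNA per cell therefore cannot be told apart.

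Axin2 protein is a scaffold of the complex that marks β-catenin for destruction, and its gene is a widely used readout of the pathway because β-catenin and the Tcf/Lef factors switch it on. Nkd1 and Nkd2 bind Dishevelled, Dkk1 and Dkk2 bind the co-receptors Lrp5 and Lrp6, Wif1 binds Wnt ligands, and Sp5 is a zinc finger factor of the Sp/Klf family. Many of these genes are themselves turned on by Wnt signaling, which closes a negative feedback loop. R-spondins bind Lgr receptors together with the ubiquitin ligases Rnf43 and Znrf3, which would otherwise remove Wnt receptors from the cell surface, and so prolong a Wnt signal.

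Promoter sequence is shown for Axin2, the listed gene that differed most with the combination, and for Dkk1 and Sp5, the listed genes whose window held Tcf/Lef core letters. RefSeq windows (build GRCm38.p6) from 250 bases before to 50 bases after the annotated start were at hand for 7 of the 10 genes, all but Apcdd1, Dkk3 and Kremen1, and only the 250 bases before the start are printed, 5′ to 3′ on the strand of the gene. Capitals mark an exact match, on either strand, to 1 of 4 cores of 7 letters, which are CTTTG followed by AA, AT, TA or TT, and of which no pair can match at the same position of the same strand. The stretches are chr11:108920099-108920348 on the plus strand for Axin2, chr19:30549497-30549746 on the minus strand for Dkk1 and chr2:70474673-70474922 on the plus strand for Sp5.
Axin2: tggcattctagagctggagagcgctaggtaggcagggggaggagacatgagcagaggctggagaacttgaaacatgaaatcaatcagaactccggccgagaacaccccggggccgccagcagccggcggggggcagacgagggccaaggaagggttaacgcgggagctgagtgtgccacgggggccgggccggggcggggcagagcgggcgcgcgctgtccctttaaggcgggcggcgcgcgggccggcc
Dkk1: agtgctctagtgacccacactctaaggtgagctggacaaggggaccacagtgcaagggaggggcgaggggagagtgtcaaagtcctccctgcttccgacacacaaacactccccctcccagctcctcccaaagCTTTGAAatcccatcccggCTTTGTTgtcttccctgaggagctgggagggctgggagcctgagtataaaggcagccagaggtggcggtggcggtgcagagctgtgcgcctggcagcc
Sp5: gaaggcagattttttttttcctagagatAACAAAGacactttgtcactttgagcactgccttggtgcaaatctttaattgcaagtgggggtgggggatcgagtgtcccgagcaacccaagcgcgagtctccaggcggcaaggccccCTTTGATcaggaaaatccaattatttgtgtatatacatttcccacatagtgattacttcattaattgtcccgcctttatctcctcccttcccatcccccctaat
The Dkk1 window held CTTTGAA from 117 bases and CTTTGTT from 98 bases before the start. The Sp5 window held CTTTGAT from 104 bases before the start and the reverse complement of CTTTGTT from 222 bases before it. The windows of Axin2, Dkk2, Nkd1, Nkd2 and Wif1 held no such letters. A core was therefore in 2 of the 7 windows (28.6%), and 5544 of all 32851 windows of 300 bases (16.9%) held one. These letters are a description of the windows and not a measurement of any factor on them.

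Signals are given below as a percentage of the 75th percentile of all probes on the same array, a value that lay between 774 and 1146 intensity units. A spot was counted as detected where the scanner software flagged it as well above background, and the lowest flagged signal on an array lay between 1.95% and 4.28% of its 75th percentile. Between 51.3% and 64.2% of probes carried the flag on an array, with the highest share on BSA replicate 1. The samples were spread over 3 slides. All of BSA shared slide 1 with Rspo2 replicate 1, all of the combination shared slide 3 with Wnt3a replicate 3, and the remaining Rspo2 and Wnt3a arrays (2 of each) made up slide 2. Neither Wnt3a nor the combination shared a slide with BSA, so a difference between those groups is also a difference between slides, and values within a slide are given where they exist. Of the markers checked against the label of the cell line, 4 of 4 basal epithelial and 5 of 5 mesenchymal genes were tested, but only Krt8 of 5 luminal epithelial genes was, and Cdh1, which encodes E-cadherin, was well above background on 0 of 12 arrays. Among markers of other cell types, 1 of 3 endothelial (Cdh5) and 0 of 3 adipocyte genes were tested, as were the immune markers Cd68 and Cd3e, whereas the immune marker Ptprc was not.

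**Figure D1:**
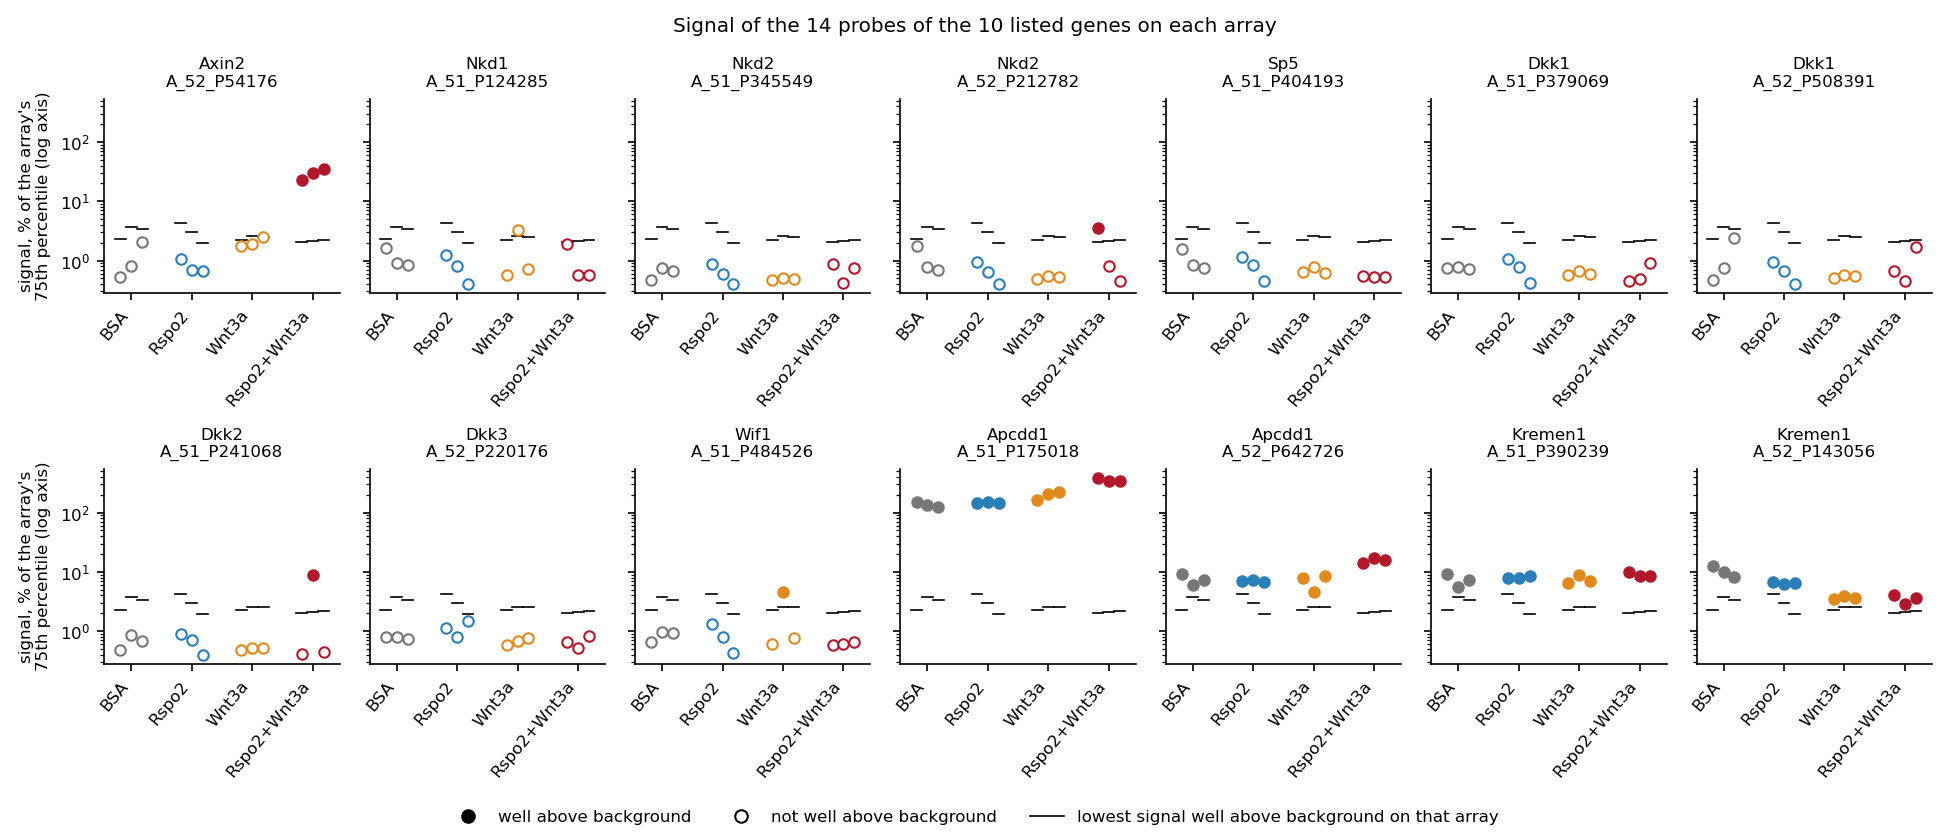
Signal of each of the 14 probes on each of the 12 arrays, as a percentage of the array's 75th percentile on a log axis; filled points were well above background, open points were not, and the short black lines mark the lowest signal flagged as well above background on that array. Axin2 is filled in the combination group only, at 22.7% to 34.5%, both probes of Apcdd1 and of Kremen1 are filled on all 12 arrays, and 3 of the 108 points of the other 9 probes are filled.

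Axin2 was detected only when Rspo2 and Wnt3a were given together. Its signal was 0.523%, 0.803% and 2.04% of the 75th percentile on the BSA arrays, 1.04%, 0.695% and 0.663% with Rspo2, 1.77%, 1.88% and 2.53% with Wnt3a, and 22.7%, 30.1% and 34.5% with both. The 3 arrays of the combination were the only ones flagged as well above background, and all 3 stood above each of the other 9 arrays. The mean with both proteins was 29.1% ± 5.96 (SD, n = 3), against 2.06% ± 0.41 with Wnt3a, 0.80% ± 0.21 with Rspo2 and 1.12% ± 0.81 with BSA.

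Axin2 passed the detection filter only through the combination and so had to differ there, which makes the p-values that follow a description. Because the probe was not well above background in the other groups, the size of the difference is a bound, set against the lowest signals that the software could call on those arrays. Axin2 was at least 9.39-fold higher with the combination than with BSA (limma, adjusted p = 1.14e-05). Against Wnt3a alone the bound was 11.8-fold (at least, adjusted p = 3.72e-04) and against Rspo2 alone 9.80-fold (at least, adjusted p = 1.28e-05). The fitted log2 changes, which use the dim signals as they were read, were 4.92 (95% interval 4.02 to 5.81), 3.82 (2.92 to 4.72) and 5.19 (4.30 to 6.09). The interaction, which is the log2 change with both proteins less the 2 changes with each protein alone, had a fitted value of 4.10 (SE 0.58, adjusted p = 0.00364), of which 3 of the 4 group means were not well above background, so its size is not a measured one.

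Neither protein alone brought Axin2 well above background, so no fold is given for them, and the fitted values rest on dim readings. The fitted log2 change was 1.10 (0.20 to 1.997) with Wnt3a, with an adjusted p of 0.0621, and -0.28 (-1.18 to 0.62) with Rspo2, with an adjusted p of 0.66. The Wnt3a and BSA arrays overlapped in 1 place, where BSA replicate 3 (2.04%) exceeded Wnt3a replicates 1 and 2. Without that BSA array the Wnt3a value was 1.65, with an adjusted p of 0.00458. The scanner software sets a second, weaker flag on signals that are positive and differ from background, and by that flag Axin2 was counted on 1 BSA, 1 Rspo2, 3 Wnt3a and 3 combination arrays.

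On slide 3 alone, the 3 combination arrays exceeded the dim Axin2 reading of the Wnt3a array by a log2 difference of 3.50. When slide was added to the fit as a term, the fitted change with both was 5.07 against BSA (adjusted p = 0.0342). Against Wnt3a it was 3.50 (adjusted p = 0.0249), whereas the interaction was 3.37 with an adjusted p of 0.123. No slide held both BSA and the combination, so the value against BSA also takes in steps between groups in which Axin2 was dim. These were 0.13 from BSA to the 1 Rspo2 array of slide 1 and 1.43 from Rspo2 to Wnt3a on slide 2. The p-values remain a description. With the normexp background correction, which adds an offset of 50 intensity units to each spot, the change against BSA was 1.65 with an adjusted p of 0.212, and the number of probes called in that comparison over the whole array went from 1155 to 330.

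The other intracellular inhibitors were near background in all groups. Nkd1 was between 0.402% and 3.29% of the 75th percentile and was well above background on 0 of 12 arrays. Its highest array was Wnt3a replicate 2, where the signal exceeded the lowest flagged signal of that array (2.55%) without being flagged itself. The first Nkd2 probe, A_51_P345549, lay between 0.398% and 0.874% and was flagged on 0 arrays. The second, A_52_P212782, was flagged on 1 array, combination replicate 1, at 3.58%, while the other 2 arrays of that group read 0.808% and 0.455%, within the range of the other groups. Sp5 lay between 0.456% and 1.56%, highest on BSA replicate 1, and was flagged on 0 arrays.

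The secreted inhibitors were near background as well. The 2 probes of Dkk1 reached at most 1.05% (A_51_P379069, on Rspo2 replicate 1) and 2.42% (A_52_P508391, on BSA replicate 3), with 0 flagged arrays for either. Dkk2 was flagged on combination replicate 2, at 8.87%, and read 0.411% and 0.444% on the other 2 arrays of the group. Wif1 was flagged on Wnt3a replicate 2, at 4.56%, and read 0.598% and 0.766% on the other 2 Wnt3a arrays. Dkk3, a divergent member of the Dickkopf family, lay between 0.516% and 1.497% and was flagged on 0 arrays. In no group were these genes detected on more than 1 array, so a difference between groups was not measurable for them.

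Over the 9 probes and 12 arrays the median signal was 0.677%, and 3 of 108 values were flagged as well above background. The weaker flag was set for 24 of the 108, of which 6 were on combination replicate 1, 5 on BSA replicate 1 and 4 on combination replicate 3. BSA replicate 1 and combination replicate 1 also had the highest shares of all probes well above background, 64.2% and 61.7%, and whether this bears on the flags of these genes was not tested.

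Apcdd1, a membrane glycoprotein that can bind Wnt ligands and Lrp5, was detected on all 12 arrays by both of its probes and rose with the combination. Of these 2 probes, 0 were named through a RefSeq transcript of the gene, and which transcripts each one detects was not analysed here. By probe A_51_P175018 the signal was 150%, 132% and 124% of the 75th percentile with BSA, 146%, 150% and 143% with Rspo2, 164%, 206% and 219% with Wnt3a, and 380%, 342% and 337% with both. The 3 combination arrays stood above all others, and the 3 Wnt3a arrays stood above the BSA and Rspo2 arrays. The change with both proteins was 2.61-fold (log2 1.39, 95% interval 1.13 to 1.64, adjusted p = 1.14e-05) against BSA and 2.41-fold (adjusted p = 3.49e-05) against Rspo2. Against Wnt3a it was 1.81-fold (log2 0.86, adjusted p = 0.00174), past the test on p but under the 2-fold requirement.

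Wnt3a alone changed this probe by 1.44-fold (log2 0.53, interval 0.27 to 0.78, adjusted p = 0.00664), under 2-fold, and Rspo2 alone by 1.08-fold (adjusted p = 0.497). Of all tested probes, 18.3% were higher with Wnt3a at an adjusted p under 0.05 whatever the size. The interaction was 0.74 on the log2 scale (SE 0.16, adjusted p = 0.0248), under 2-fold.

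By probe A_52_P642726, whose start lies 16727 bases from that of the other in the coordinates of the files, the signal was 9.34%, 6.01% and 7.296% with BSA, 6.90%, 7.29% and 6.70% with Rspo2, 7.82%, 4.63% and 8.38% with Wnt3a, and 14.02%, 17.1% and 15.98% with both. The 3 combination arrays again stood above the other 9, but the Wnt3a arrays straddled those with BSA. The change with both was 2.11-fold against BSA (log2 1.07, SE 0.22, adjusted p = 0.0029), 2.33-fold against Wnt3a (adjusted p = 0.00895) and 2.25-fold against Rspo2 (adjusted p = 0.00387). The changes with Wnt3a alone (log2 -0.14, interval -0.62 to 0.33) and with Rspo2 alone (-0.09, interval -0.57 to 0.38) were not called, and the interaction was 1.31 (SE 0.30, adjusted p = 0.0288).

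Both probes rose with the combination, and the gap between them was widest with Wnt3a, although the gaps of those 2 groups overlapped. On the Wnt3a arrays the second probe's log2 difference from its BSA mean less that of the first was -0.20, -1.29 and -0.53, with the widest gap on replicate 2, where the second probe read lowest of all arrays. On the combination arrays the gap was -0.58, -0.14 and -0.21, and on the BSA arrays the gap between the probes ran from -0.28 to 0.18.

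Of 26 alternatives, 5 ended the call on the second Apcdd1 probe against BSA and 1 ended that on the first. Without BSA replicate 2 the change against BSA was 0.92, and without Wnt3a replicate 2 the change against Wnt3a was 0.95, both under 2-fold, and the interaction had an adjusted p between 0.0583 and 0.0739 without any 1 of 6 arrays (BSA 1 and 3, Rspo2 2 and 3, combination 2 and 3). With slide as a term the change against BSA was 1.12 (adjusted p = 0.0633) by the first probe and 0.58 (adjusted p = 0.635) by the second. On slide 3 alone, the 3 combination arrays exceeded the Wnt3a array by 0.68 and 0.90 on the log2 scale. With the normexp correction the first probe kept its call against BSA and the second did not (0.37, adjusted p = 0.745).

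Kremen1, a transmembrane protein that binds Dickkopf proteins and with them removes Lrp6 from the surface, gave 2 answers by its 2 probes. Probe A_51_P390239, named through a RefSeq transcript of the gene, read 9.03%, 5.55% and 7.16% with BSA, 7.99%, 7.76% and 8.55% with Rspo2, 6.59%, 8.86% and 6.98% with Wnt3a, and 9.94%, 8.38% and 8.39% with both. All 3 treated groups overlapped BSA. The log2 changes were 0.19 (interval -0.18 to 0.56) with Rspo2, 0.06 (-0.31 to 0.43) with Wnt3a and 0.32 (-0.05 to 0.69) with both, so a change of 2-fold in either direction lies outside each interval.

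Probe A_52_P143056, which the files place on Kremen1 through a cDNA clone entry and not through a RefSeq transcript, fell with Wnt3a and with the combination. It read 12.6%, 9.84% and 8.15% with BSA, 6.68%, 6.11% and 6.45% with Rspo2, 3.41%, 3.91% and 3.57% with Wnt3a, and 4.10%, 2.88% and 3.55% with both. The BSA arrays stood above all others, the Rspo2 arrays lay between, and the Wnt3a and combination arrays overlapped each other below them. The level fell by 1.47 on the log2 scale with Wnt3a (interval -1.82 to -1.12, adjusted p = 2.69e-04) and by 1.53 with both (interval -1.88 to -1.18, adjusted p = 5.55e-05). With Rspo2 alone the change was -0.65 (adjusted p = 0.0267) and between the combination and Rspo2 it was -0.88 (adjusted p = 0.00345), both past the test on p and under 2-fold. Wnt3a and the combination did not differ in the test (-0.06, interval -0.41 to 0.29), and the interaction was 0.58 (adjusted p = 0.119).

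The gap between the 2 Kremen1 probes on the same array widened from group to group. The log2 difference of A_52_P143056 less that of A_51_P390239, each taken from its BSA mean, ran from -0.31 to 0.33 on the BSA arrays. Rspo2 gave -0.83 ± 0.08 (SD, n = 3), Wnt3a gave -1.53 ± 0.13 and the combination gave -1.85 ± 0.16, and no pair of these groups overlapped. With 3 arrays a group, 0.1 is the smallest p of an exact permutation test, and none is given. The probes start 65353 bases apart in the coordinates of the files, and which transcripts each one detects was not analysed here.

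Within slides, A_52_P143056 differed by -0.59 between the Rspo2 array and the BSA mean on slide 1, by -0.78 between Wnt3a and Rspo2 on slide 2 and by -0.04 between the combination and Wnt3a on slide 3. With slide as a term its changes against BSA were -1.37 for Wnt3a (adjusted p = 0.111) and -1.40 for the combination (adjusted p = 0.131), neither of them called. When a single value was used for each gene, Kremen1 was not called with Wnt3a or with the combination: its log2 changes were -0.70 and -0.60 by the mean over probes, under 2-fold, and 0.06 and 0.32 by the brighter probe.

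**Figure D2:**
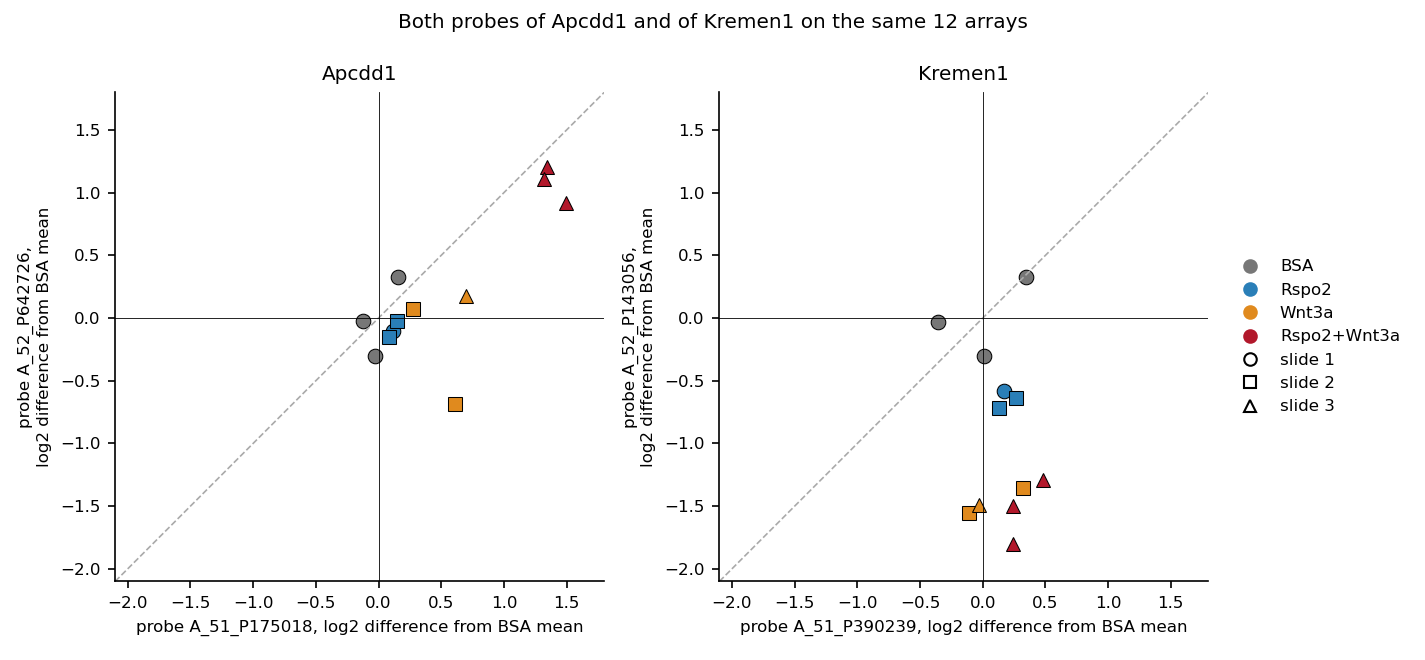
Log2 difference from the BSA mean on each array for both probes of Apcdd1 (left) and of Kremen1 (right), with groups by colour and slides by shape; points on the dashed line moved equally by both probes. The combination arrays of Apcdd1 lie near the line at 0.92 to 1.49, whereas the Wnt3a and combination arrays of Kremen1 lie below it, at -1.80 to -1.29 by A_52_P143056 and -0.11 to 0.48 by A_51_P390239.

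Counted over the 5 tested probes, 0 were called with Rspo2 against BSA in the limma fit, where 0.721% of all tested probes were. Of the 5, 1 had an unadjusted p under 0.05, and the methods' two-sample test called 0. Of all 22751 tested probes, 3817 had an adjusted p under 0.05 at any size in that comparison. With Wnt3a against BSA 1 was called lower (2.11% of all tested probes) and 0 higher (0.404%). With the combination 3 were called higher (1.28%) and 1 lower (3.79%). Against Wnt3a, 2 were called higher with the combination (0.413%), and against Rspo2, 3 were (0.976%). The interaction was called positive for 2 (1.27%), Axin2 and the second probe of Apcdd1. The arrays of the combination lay wholly above those of BSA for 3 of the 5 probes (30.9% of all tested probes) and wholly below for 1 (23.1%). Axin2 is among them through the group in which it was high, and these counts describe the probes that could be tested rather than the 10 genes. The comparisons with BSA share the same 3 control arrays.

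**Figure D3:**
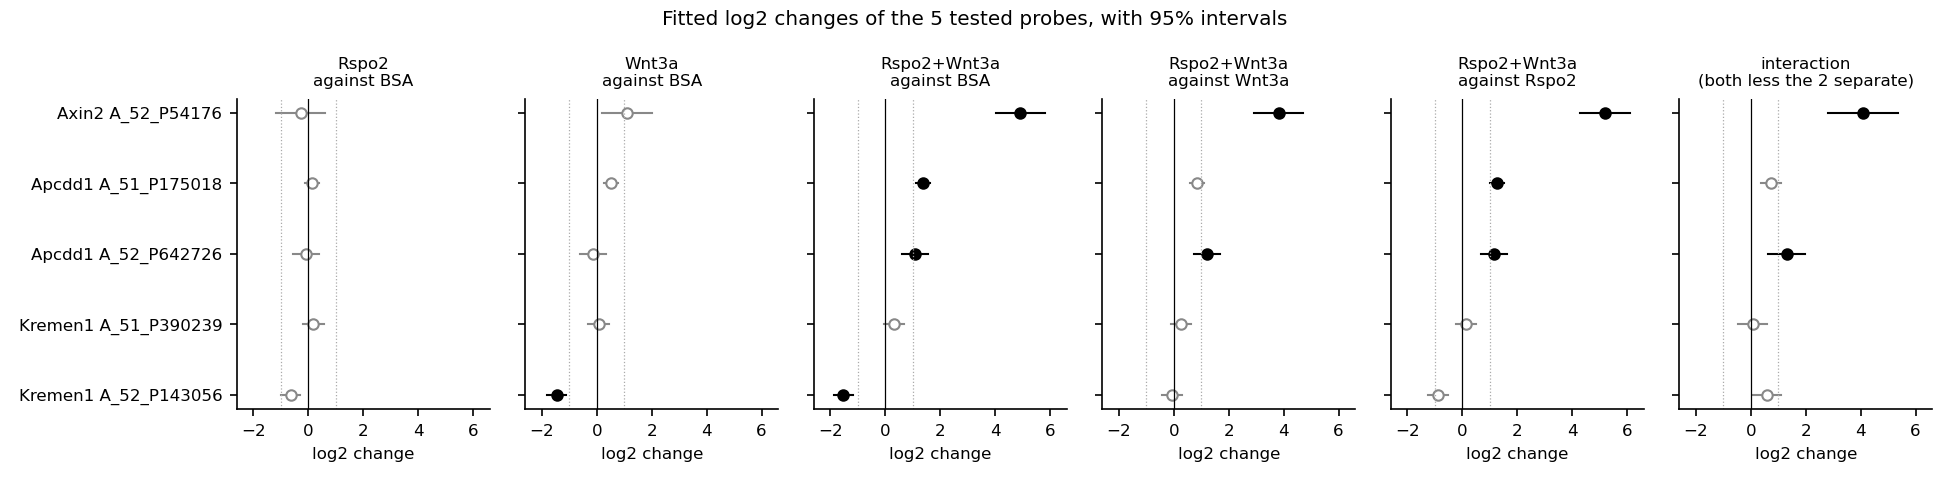
Fitted log2 changes of the 5 tested probes in each of the 6 comparisons, with 95% intervals; filled points were called (adjusted p under 0.05 and at least 2-fold), dotted lines mark 2-fold, and the values of Axin2 rest on groups in which it was not well above background. The combination moved Axin2 by 4.92, the Apcdd1 probes by 1.39 and 1.07 and 1 Kremen1 probe by -1.53 against BSA, and the other Kremen1 probe by 0.32.

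Other inhibitors of the pathway were examined as a list of 40 genes, of which 26 had a tested probe: 5 of 13 secreted, 3 of 6 surface and 18 of 21 intracellular ones. Among the secreted genes with no tested probe were Sfrp1, Sfrp2, Sfrp4, Sfrp5, Frzb, Dkk4, Sostdc1 and Cer1. The secreted class was therefore mostly not tested here, and the secreted listed genes were not tested either. Sfrp2 was well above background on 4 arrays and Sfrp1 and Frzb on 2 each, by any probe. Sfrp4, Sfrp5, Dkk4, Sostdc1 and Cer1 were on 0. With the combination 2 of the 26 rose (1.47% of 13261 genes with 1 probe each) and 1 fell (3.14%). The median log2 change was 0.17, against 0.06 over all genes.

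Notum, a secreted carboxylesterase that removes the lipid from Wnt ligands, read 17.7%, 13.1% and 10.9% with BSA, 12.7%, 12.7% and 11.6% with Rspo2, 14.2%, 13.5% and 13.8% with Wnt3a, and 29.7%, 27.9% and 28.7% with both. Its combination arrays stood above all others, and the BSA arrays overlapped those of each single protein. It changed by 1.08 on the log2 scale against BSA (SE 0.14, adjusted p = 2.44e-04), by 1.06 against Wnt3a (adjusted p = 0.00167) and by 1.20 in the interaction (adjusted p = 0.00831). Without BSA replicate 3 the change against BSA was 0.92, under 2-fold.

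Znrf3, the membrane ubiquitin ligase to which R-spondins bind, read 117%, 64.9% and 78.9% with BSA, 97.8%, 104% and 102% with Rspo2, 145%, 172% and 126% with Wnt3a, and 173%, 192% and 229% with both. The Wnt3a and combination arrays all stood above BSA. Its change was 1.22 with both (SE 0.20, adjusted p = 8.54e-04), and 0.79 with Wnt3a (adjusted p = 0.0118), under 2-fold. The other ubiquitin ligase, Rnf43, changed by 0.69 with both (adjusted p = 0.0181), also under 2-fold.

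Tle2, a Groucho corepressor that holds Tcf/Lef targets silent, fell. It read 135%, 166% and 160% with BSA, 138%, 157% and 146% with Rspo2, 108%, 119% and 83.3% with Wnt3a, and 64.2%, 47.2% and 47.0% with both, and its log2 change with both was -1.55 (SE 0.16, adjusted p = 4.19e-05). With each protein alone 0 of the 26 genes were called in the limma fit (0.113% of all genes were called higher and 0.483% lower with Rspo2, and 0.513% and 1.36% with Wnt3a). At an adjusted p under 0.05 of any size, 2 of the 26 passed with Rspo2 and 5 with Wnt3a. Of all 22751 tested probes, 3817 and 7161 did. An unadjusted p under 0.05 was found for 5 and 9 of the 26, of which 0 reached 2-fold, and its share over all probes was not counted. With slide as a term none of the 3 calls was kept: Notum was at 1.15 (adjusted p = 0.158), Znrf3 at 1.47 (adjusted p = 0.169) and Tle2 at -1.24 (adjusted p = 0.0913).

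Receptors and transducers of the pathway were a list of 27 genes, of which 21 had a tested probe. With the combination 1 was called higher (1.47% of all genes) and 2 lower (3.14%), or 3 and 3 when a call on any probe of a gene counted, and the median log2 change was -0.23, against 0.06 over all genes. With Wnt3a alone 1 was called higher (0.513% of all genes), and with Rspo2 alone 0 were in the limma fit. With Rspo2, 3 of the 21 had an unadjusted p under 0.05, and 1 had an adjusted p under 0.05 at any size. Of all 22751 tested probes, 3817 passed on the adjusted p.

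Tcf7, which encodes a Tcf/Lef factor that is itself a target of the pathway, rose in steps: 19.1%, 16.9% and 21.1% with BSA, 20.8%, 21.4% and 19.7% with Rspo2, 44.6%, 41.3% and 34.2% with Wnt3a, and 102%, 109% and 129% with both. By this probe, the brighter of 2 tested for Tcf7, the Wnt3a arrays lay wholly between the combination arrays and the rest. Its log2 change was 1.07 with Wnt3a (SE 0.12, adjusted p = 3.69e-04), 2.57 with both (adjusted p = 2.99e-07) and 1.38 in the interaction (adjusted p = 0.00194), and the change with both was called with slide as a term too (2.92, adjusted p = 0.00134). Lef1, the other member of the family often induced by Wnt, was well above background on 0 of 12 arrays.

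Lgr6, an R-spondin receptor, read 25.6%, 28.2% and 25.5% with BSA, 34.4%, 38.7% and 37.8% with Rspo2, 21.9%, 18.5% and 20.3% with Wnt3a, and 9.01%, 11.5% and 11.2% with both. By this probe, the brighter of 2 tested for Lgr6, the 4 groups did not overlap. The combination arrays lay wholly below those of BSA for 23.1% of all tested probes, and the share for which all 4 groups stood apart was not counted. Lgr6 fell by 1.33 with both (SE 0.11, adjusted p = 1.03e-05), its interaction was -1.43 (adjusted p = 8.21e-04), and the change with both was called with slide as a term as well (-1.50, adjusted p = 0.0244). Lrp5, the Wnt co-receptor that Dickkopf proteins bind, read 110%, 124% and 156% with BSA and 44.1%, 47.3% and 70.7% with both, a log2 change of -1.29 (SE 0.31, adjusted p = 0.00786), which was -0.48 (adjusted p = 0.801) with slide as a term. Bcl9, a β-catenin coactivator, was called in the interaction (1.03, adjusted p = 0.0132) but not against BSA. By the brighter of its 2 tested probes its level was lowest with Wnt3a alone, at 13.4% to 17.4%, and it read 22.7% to 30.0% with both. Of 23 alternatives, 7 ended that call, among them leaving out Rspo2 replicate 2 (0.95), Wnt3a replicate 2 (0.94) or combination replicate 1 (0.92), each under 2-fold.

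**Figure D4:**
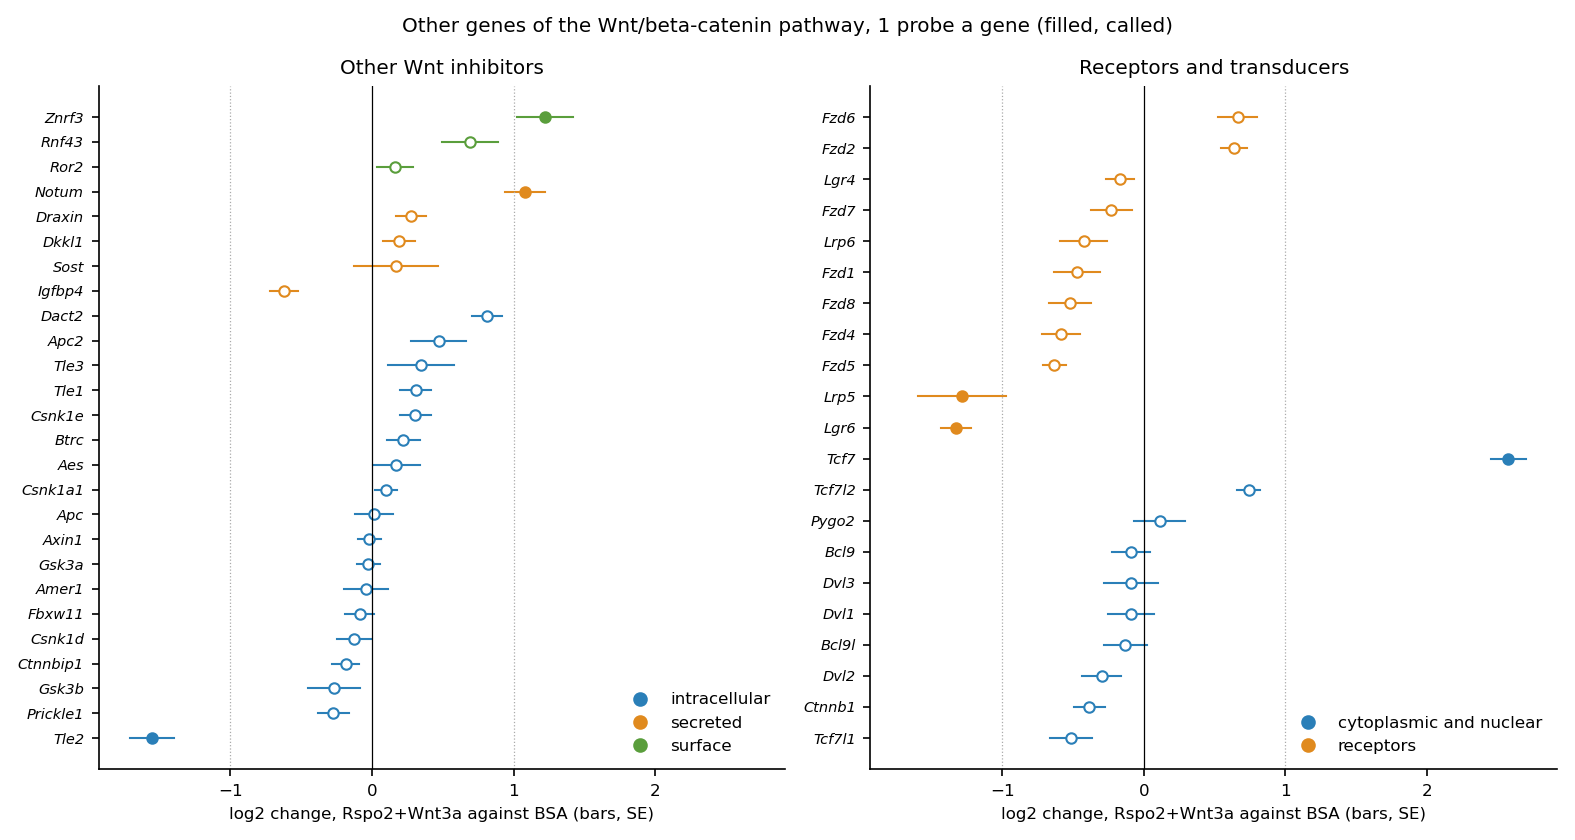
Log2 change with Rspo2+Wnt3a against BSA, with its SE, for the tested genes of the other Wnt inhibitors (left, 26 genes) and of the receptors and transducers (right, 21 genes), 1 probe a gene, coloured by role; filled points were called and dotted lines mark 2-fold. Notum and Znrf3 lie above 1 and Tle2 below -1 on the left, and Tcf7 at 2.57 and Lgr6 and Lrp5 near -1.3 are the called genes on the right.

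Among the cell type markers, at 1 probe a gene, Krt14 (basal) changed by 1.24 with the combination (adjusted p = 8.28e-06), beside the changes of the genes above. The other basal genes were not called in that comparison: Acta2 changed by 0.78 (adjusted p = 7.26e-05), Krt5 by 0.22 (adjusted p = 0.387) and Trp63 by -0.40 (adjusted p = 0.0143). Krt5 was called elsewhere, at 1.06 for the combination against Rspo2 (adjusted p = 0.00307) and 1.63 in the interaction (adjusted p = 0.0075). When a call on any probe of a gene counted, 2 marker genes were higher with the combination against BSA and 1 was lower. Krt8, the only luminal gene tested, changed by -1.15 (adjusted p = 3.66e-04). With Wnt3a the immune marker Cd3e changed by -1.01 (adjusted p = 0.0397). Of the markers with no tested probe, Cdh1, Plin1, Lep and Kdr were well above background on 0 arrays by any probe. Krt18 was on 3 arrays, Krt19, Epcam, Pecam1 and Ptprc were on 2 each, and Adipoq was on 4. The part of these markers in the results above was not tested.

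The genes whose pattern was most like that of Axin2 were found by the root mean square difference over the 12 arrays, after each probe had been centred on its BSA mean on the log2 scale, as a description with no test. They were Alpl (0.66), Ch25h (0.72), Hs3st1 (0.81), Rhou (0.81) and Krt76 (0.83). Alpl encodes an alkaline phosphatase, Ch25h cholesterol 25-hydroxylase, Hs3st1 a heparan sulfate sulfotransferase, Rhou a small GTPase and Krt76 a keratin. On the BSA arrays Alpl was well above background on 1, Ch25h and Rhou on 3, and Hs3st1 and Krt76 on 0, whereas all 5 were on the 3 combination arrays. Krt76 lay apart from the other 4 with Wnt3a, where its log2 difference from BSA was -0.19. That value is taken from BSA readings that were not well above background, so its size is not a measured one. The same holds for the differences of Axin2 and Hs3st1 from BSA, so the distances rest partly on dim readings.

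**Figure D5:**
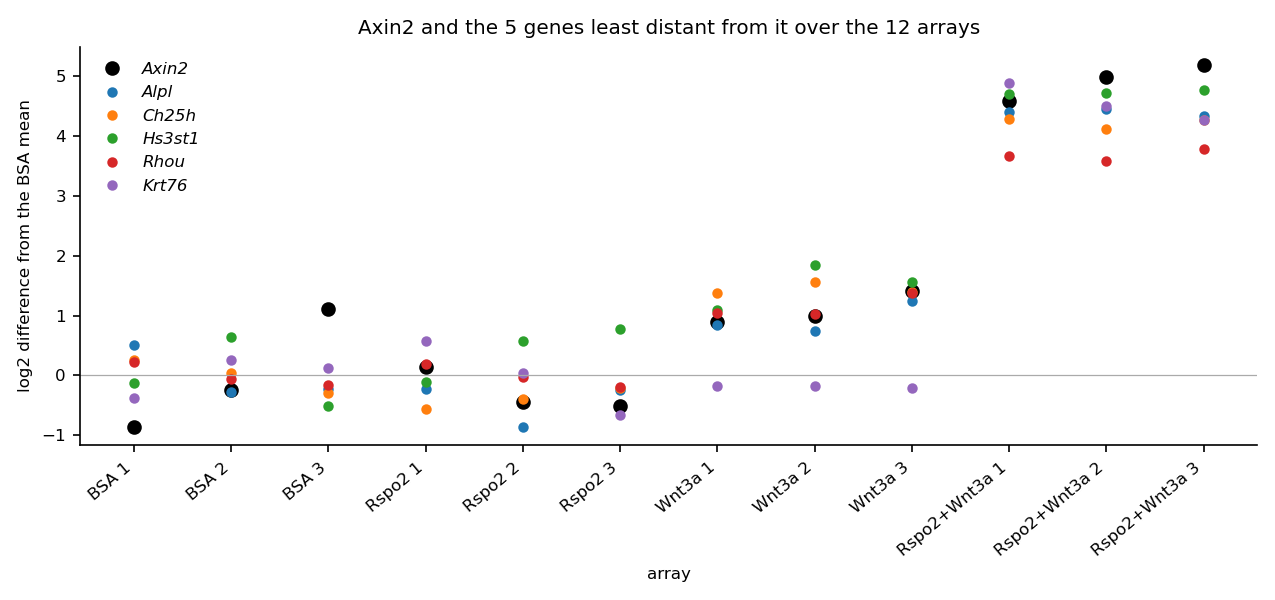
Log2 difference from the BSA mean on each of the 12 arrays for Axin2 (black) and the 5 genes least distant from it. On the Wnt3a arrays Axin2 lies at 0.90 to 1.41 and on the combination arrays at 4.58 to 5.18, and its BSA arrays spread from -0.86 to 1.10. The BSA readings of Axin2 were not well above background, so the sizes of its differences are not measured ones.

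For the first probe of Apcdd1 the nearest genes were A730095J18Rik (0.13), Oit3 (0.15) and Dusp4 (0.16), and for the second Rnd3 (0.24), Tcf7l2 (0.24) and Notum (0.24), the last of which is a Wnt inhibitor from the list above. For the Kremen1 probe that fell they were Zfyve26 (0.15), Cd34 (0.19) and Cx3cl1 (0.21). Oit3 was well above background on 0 BSA arrays and Cd34 on 0 combination arrays, so their likeness rests partly on dim readings. Normalization mattered for the Axin2 neighbours: 1 of the 5 was among the nearest 5 with the normexp correction, 2 were with quantile normalization, 2 without BSA replicate 3 and 3 without combination replicate 3.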

How the data were processed

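RNA of C57MG monolayers was hybridized in 1 colour to Agilent whole mouse genome arrays, 3 per group. The authors processed the scans with Agilent Feature Extraction 9.5.3.1 (submitters' processing notes), and the deposited scanner files give the background-subtracted intensity of each spot, its mean and local background intensity, and quality flags. The deposited value table holds each signal as a ratio to the array's 75th percentile; its column medians lie between 0.05 and 0.08, its scale is linear, it is not centred by gene, and its log2 values correlate with the scanner values at 0.9997 or more. It served as an alternative.

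Here 1327 of 520548 spot values flagged as uneven or outliers were left out, spots of a probe were averaged, and log2 intensities were reduced by the array's 75th percentile. Probes flagged as well above background in every replicate of 1 group or more (22751 of 41174; where a probe has several spots, a share of 0.5 of them had to carry the flag) were fitted together in R 4.3.3, using limma 3.58.1 and the package data.table in version 1.17.8, over all 12 arrays, with empirical Bayes variances (prior of 2.74 degrees of freedom) and two-sided tests. P-values were adjusted by the Benjamini-Hochberg method over all tested probes within each of 6 comparisons. A probe was called at an adjusted p under 0.05 and at least 2-fold. Bounds set the brighter group's mean against, for each array of the dimmer group, the higher of its lowest flagged signal and the probe's own signal, averaged on the log2 scale. The number of arrays limits the precision, and p-values measure the spread between monolayers of 1 line.

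Groups and replicate numbers came from the sample titles and slides from the scanner headers. Probes were named by their symbol in the files, and list genes through RefSeq accessions where these matched (22951 probes) and otherwise by symbol (11758). The listed genes, the gene lists and the tests were chosen with earlier results of these data known. The text names all listed genes, list genes called against BSA or in the interaction, and the 5 genes nearest to Axin2 and the 3 nearest to each other probe called with the combination; 1 probe a gene, the brightest, stood for a list gene. Rnf43, Lef1, the genes given as having no tested probe and the markers were named after their values were seen. The values of a single marker gene are not reported here. The fit was tested on simulated data. Promoter letters were read from RefSeq windows (GRCm38.p6), and figures were drawn with matplotlib 3.10.9, numpy 2.4.6 and pandas 2.3.3 in python 3.11.15. The genome build of the probe coordinates is not given in the sources used here, so only distances are printed. Results were recomputed under 29 alternatives: in 12 of them a single array was dropped, and the rest changed the background correction, scaling, filter, test, fit or unit.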

Additional observations from a re-analysis of the deposited data

Results flagged for a closer look

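The interaction, a test of whether the change with both proteins differed from the sum of the changes with each alone, was called for 438 of all 22751 tested probes, and for 6 probes of the listed genes and, at 1 probe a gene, of the inhibitor and receptor lists. Axin2 had a value of 4.10 on the log2 scale, fitted with neither BSA nor the single-protein groups well above background. The second probe of Apcdd1, A_52_P642726, had a value of 1.31, and the first probe of the gene had 0.74, under 2-fold. Notum had 1.20 and Tcf7 1.38. Bcl9 had 1.03, with a level that was lowest with Wnt3a alone, and Lgr6 had -1.43, with a level that was highest with Rspo2 alone and lowest with both. When slide was added to the fit, Tcf7 (1.59) and Lgr6 (-1.34) were called, and the other 4 were not.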

How the results depend on the processing

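The first probe of Apcdd1 was called against Rspo2 under all 26 alternatives that gave a value, as were Tcf7 and Lgr6 with both proteins against BSA. Signal over background limits the Axin2 values, since 9 of its 12 arrays were not well above background. No cause was tested unless named.

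Counts of called probes of the listed genes changed as follows. With the normexp correction, which also moved the median change of all tested probes to 0.15 (Rspo2 against BSA), -0.11 (both against Rspo2) and -0.16 (interaction), they were 0 with Wnt3a, 1 with both, 0 against Wnt3a, 1 against Rspo2 and 0 in the interaction. Quantile normalization gave 2 with Wnt3a, where the share of higher among all calls went from 16.1% to 51.3% (14% to 37.5% with Rspo2, 25.3% to 38.2% with both, 66.2% to 39.1% in the interaction). A percentile over probes above background on all arrays moved the median change with Wnt3a to -0.12. With slide as a term they were 0, 1, 1 and 0 with Wnt3a, with both, against Wnt3a and in the interaction. The methods' two-sample test with adjusted p gave 0, 2 and 0 with Wnt3a, with both and against Wnt3a. Without the fold requirement they were 1 with Rspo2 and 2 with Wnt3a. Testing all probes gave 1 in the interaction, testing only those above background on all 12 arrays 1 there and 1 against Wnt3a (Axin2 is not among them), and fitting only the groups compared 1 against Wnt3a. With each array left out they ran from 1 to 2 with Wnt3a (2 without BSA replicate 3), against Wnt3a (1 without Wnt3a replicate 2) and in the interaction. By the brightest probe of each gene the genes called were 0, 1 and 1 with Wnt3a, against Wnt3a and in the interaction, and by the mean over probes 0 with Wnt3a. The 26 other inhibitors had 1 call by the methods' test with adjusted p, 8 without the fold requirement and 0 with slide as a term, and the 21 receptors and transducers 12 without the fold requirement (which 8916 of all 22751 tested probes passed) and 6 by any probe. Of the 5 neighbours of Axin2, 1 was kept with normexp, 2 with quantile normalization, and 2 to 5 with an array left out.

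Values that changed sign were, for Rspo2 against BSA, Axin2 (0.59 normexp, 0.13 slide, -0.71 to 0.27 with an array left out), Apcdd1 A_52_P642726 (0.45 normexp, 0.046 quantile, -0.25 to 0.072) and Kremen1 A_52_P143056 (0.22 normexp). For Wnt3a against BSA they were Axin2 (-0.16 normexp), Apcdd1 A_52_P642726 (0.14 quantile, -0.30 to 0.12) and Kremen1 A_51_P390239 (-0.17 normexp, -0.060 percentile over probes always above background, -0.12 to 0.23). With both, Kremen1 A_51_P390239 was -0.093 against BSA with normexp, Kremen1 A_52_P143056 ran from -0.18 to 0.073 against Wnt3a with an array left out and was -0.37 in the interaction with normexp, and Apcdd1 A_52_P642726 was -0.086 against Rspo2 with normexp, the 1 called value that changed sign.

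The same-numbered arrays of different groups deviated together no more than others (r from -0.41 to 0.27 over 18 pairs, and 3 of 12 arrays correlated best with their own number), so the numbers do not pair the samples. With the replicate block, 1 probe in place of 2 was called in the interaction (Apcdd1 A_52_P642726, 1.31, adjusted p = 0.0522), and the block changed no other call on the listed genes.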
